A study of Bos taurus with 72 samples.

Results

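The genes described here had a lower mean level in whole blood of beef cattle at the stage named pulled than at both the stage before it and the stage after it. They were chosen from their measured values. A gene was taken when its mean level over 66 libraries was at least 1 log2 CPM (CPM is the count scaled to library size, here with a prior count of 2) and when its mean paired difference was -0.75 or less both for pulled minus entry and for pulled minus close-out. The rule took 67 of 12655 genes tested, or 0.529%, from a table of 24616 genes. The low-count filter came first in the rule, so all 67 passed it by construction. A further 55 genes met both falls but not the level, 323 met the level and the fall against entry only, and 125 met the level and the fall against close-out only.

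The study followed 24 male beef cattle and took blood from each at 3 stages, which the labels name entry, pulled and close-out, and the series title gives bovine respiratory disease as its subject. Each group is therefore the same animals at another stage, sampled in PAXgene tubes and sequenced as poly-A selected RNA, with 24 libraries per stage. The labels give no breed, age, diagnosis, pathogen, treatment or number of days between stages, and no healthy animals sampled alongside were analysed here, so stage, age and time on feed cannot be told apart. Each library is 1 animal at 1 stage, and no label says that animals were pooled.

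Whole blood RNA is a mixture of the RNA of neutrophils, lymphocytes, monocytes, platelets and immature red cells. During an infection the bone marrow releases neutrophils and lymphocytes can leave the circulation, so the make-up of the blood shifts together with the transcription inside each cell type. In such bulk samples, fewer cells of a type and less RNA per cell cannot be told apart. Genes that dip once and return are of interest in a longitudinal design because the animal's own earlier and later samples serve as its reference.

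The counts are listed by Ensembl identifier with no gene name, and 0 of the 24616 identifiers matched the gene table used here. The check of the blood label against cell type markers could therefore not be made, and the known function of the 67 genes is not given. They are described by group, and 4 identifiers are printed: the pair with the largest values of the smaller of its 2 falls, and the pair with the smallest p among the members that were higher at close-out than at entry. The limit of 4 was set after it was seen that names were missing.

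Animals 9 and 12 were left out by the rule, which leaves 22 animals. The rule gives no reason, but in earlier work on these data the pulled libraries of both animals did not match their labels. The library labelled pulled of animal 9 differed from the entry library of animal 11 by a chi-square of 1.46 per degree of freedom, while the next nearest library stood at 77.8. For animal 12 no library was found that matched the one labelled pulled. With all 24 animals in the rule, 63 genes met it, 60 of them among the 67. The animals also fall into 2 sets by the number in the library title, up to 98 (16 of the 22 animals) and above 100 (6 animals). The labels give this number no meaning, and the division was noticed in the entry libraries, so it is no group of the study. A difference between the sets that involves entry is therefore not independent of how they were noticed. Library totals ran from 8.24 to 29.1 megareads with a median of 17.2 megareads. The TMM scaling factor at entry was 1.13 ± 0.0856 in the 16 and 0.806 ± 0.0966 in the 6 (SD, n = 16 and n = 6), and at pulled it was 0.911 ± 0.0741 and 0.998 ± 0.116. Its part in the results was tested only through the alternative scalings given beside them.

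The dip of the 67 genes was broad over animals. The mean level over the 67 genes was 3.58 ± 0.49 log2 CPM at entry, then 2.47 ± 0.35 at pulled and 3.64 ± 0.34 at close-out (SD, n = 22). Its lowest, median and highest library stood at 2.64, 3.73 and 4.27 at entry, at 2.02, 2.52 and 3.34 at pulled, and at 3.04, 3.64 and 4.28 at close-out. The ranges overlapped between pulled and both other stages. Within animals, the mean over the genes was lower at pulled than at entry in 21 of 22 animals, and lower than at close-out in 22 of 22. Animal 3 was the exception, with a mean 0.20 higher at pulled than at entry. The other 21 differences from entry reached down to -1.94, and the 22 differences from close-out ran from -2.12 to -0.07, with animal 10 nearest to 0. These values were used by the rule and are given as a description, with no test.

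The 67 genes took 0.725% ± 0.213 of all counts at entry, then 0.378% ± 0.25 at pulled and 0.711% ± 0.329 at close-out (SD, n = 22). Single libraries ran from 0.328% to 1.09%, from 0.0976% to 1.19% and from 0.299% to 1.43% at these stages. The member with the highest level alone took 0.278% of all counts on average over the 66 libraries. Levels ran from 1.13 to 11.17 log2 CPM with a median of 2.24. The median was 3.84 over all genes tested and 4.58 over the 10367 of them with a level of at least 1. Of the 67, 29 were under 2 log2 CPM and 12 were at 5 or more. The median count per library at pulled had a median of 42.5 over the genes, and 6 genes had a median count under 20. The lowest count of any member in a pulled library was 1.

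The mean paired difference of the members from entry ran from -2.44 to -0.76 with a median of -0.997, against a median of -0.03 over all genes tested. The difference from close-out ran from -3.16 to -0.76 with a median of -0.92, against -0.00 over all genes tested. Both falls were past 1 on the log2 scale in 17 members, past 1.5 in 5 and past 2 in 0. The fall against close-out was past 2 in 7 members and the fall against entry in 3. In 22 of the 67 the fall against close-out was the larger one. Near the threshold, the smaller fall of the 3 genes just inside was -0.76 in each, and that of the 3 genes just outside was -0.75, -0.74 and -0.74. There were 14 members between -0.75 and -0.80 and 19 genes just outside between -0.70 and -0.75, so genes with nearly the same values lie on both sides of the threshold.

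The members differed in how many animals carried the dip. A member was lower at pulled than at entry in 14 to 22 animals (median 18), lower than at close-out in 14 to 22 (median 19), and lower than both in the same animal in 10 to 20 (median 16). At least 20 of the 22 animals were lower than at entry for 11 members (0.853% of all genes tested), lower than at close-out for 26 (3.15%) and lower than both for 4 (0.134%). For 0 members did the range at pulled lie wholly below the range at entry (0% of all genes tested) or at close-out (0.0158%). In the edgeR quasi-likelihood fit with the animal as a block, 66 members were lower at pulled than at entry at a Benjamini-Hochberg adjusted p under 0.05 (21.4% of all genes tested), 65 were lower than at close-out (12.1%) and 64 were lower than both (6.64%). The rule used these contrasts, so the counts describe the list only.

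Taken by animal, the dip against entry covered between 34 and 67 of the 67 genes, and the dip against close-out between 37 and 67. Animals 20, 23 and 24 were lower at pulled than at entry for all 67 genes, and animals 6, 8 and 21 were lower than at close-out for all 67. Animal 24 came nearest to the full pattern, with 66 genes lower than at both other stages. Animal 3 was lower than both for 30 genes, the fewest. In the 6 animals a median of 39 genes was lower than at entry, against 63.5 in the 16, while a median of 64 and 59 was lower than at close-out.

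ENSBTAG00000011824 had the largest smaller fall of all members. Its lowest, median and highest library stood at -0.24, 2.86 and 4.91 log2 CPM at entry, at -2.08, 0.33 and 3.61 at pulled, and at 0.36, 2.01 and 3.68 at close-out. The stage means were 2.66 ± 1.38, 0.22 ± 1.22 and 2.15 ± 1.04 (SD, n = 22). The 3 ranges overlapped, and the highest pulled library, of animal 3, came from the animal with the lowest entry value. The gene was lower at pulled than at entry in 21 of 22 animals and lower than at close-out in 20. The edgeR quasi-likelihood fit gave -2.68 against entry (SE 0.40) and -2.09 against close-out (SE 0.40), values that the rule selected for. Its counts at pulled ran from 1 to 184, so the lowest libraries are imprecise.

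ENSBTAG00000011824 was lower at pulled than at entry in 16 of the 16 animals and in 5 of the 6. The mean paired difference was -3.25 ± 1.10 in the 16 (SD, n = 16) and -0.26 ± 2.07 in the 6 (SD, n = 6). The value of the 6 leans on animal 3: without it the other 5 stood at -1.08 ± 0.57 (SD, n = 5). The difference between the sets was 3.33 (SE 0.77; edgeR quasi-likelihood test, adjusted p = 0.000208, range over the alternatives 4.97e-06 to 0.00347). Without animal 3 it was 2.31, with an adjusted p of 0.00347 in the same edgeR test. Close-out was higher than entry in 6 of 6 and in 4 of 16, and the difference between the sets in close-out minus entry was 2.43 (SE 0.69; edgeR quasi-likelihood test, adjusted p = 0.00228, range over the alternatives 0.000587 to 0.00548).

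ENSBTAG00000043582, the next by that order, was more highly expressed. Its lowest, median and highest library stood at 4.11, 5.33 and 6.73 log2 CPM at entry, at 1.23, 2.63 and 6.46 at pulled, and at 1.86, 4.98 and 7.14 at close-out. The spread was narrow at entry and wide afterwards, with stage means of 5.40 ± 0.57, 3.14 ± 1.49 and 4.97 ± 1.23 (SD, n = 22). Animals 3, 11 and 17 held the 3 highest pulled values, at 6.01, 5.65 and 6.46, above the entry mean. The gene was lower at pulled than at entry in 19 of 22 animals, and than at close-out in 19. The fits gave -2.24 (SE 0.37) and -1.76 (SE 0.36). Between the sets the difference in pulled minus entry was -0.22 (SE 0.80; edgeR quasi-likelihood test, adjusted p = 0.815, range over the alternatives 0.214 to 0.848), which at this standard error does not show that the sets were equal. Its sign turned to 0.37 with library totals only, and without animal 3 it was -1.02.

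**Figure D1:**
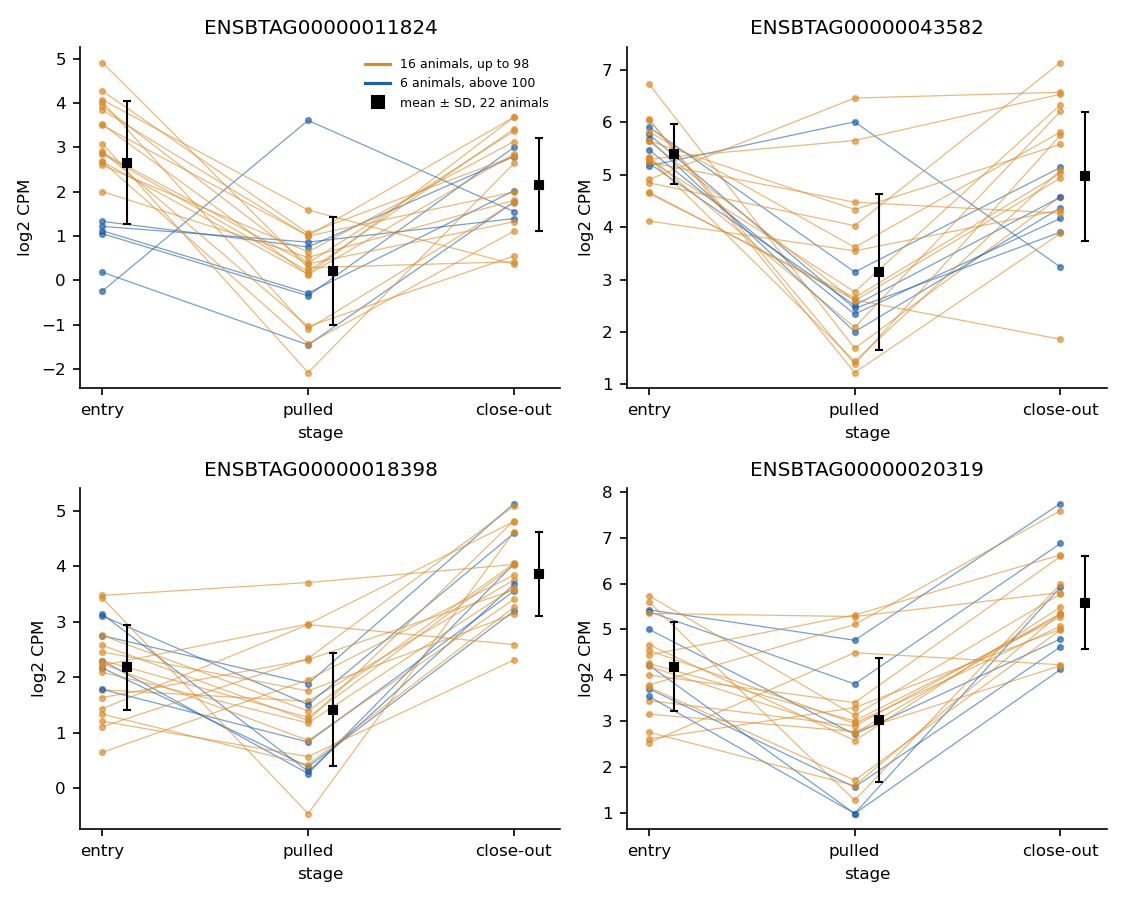
Log2 CPM (vertical axes) of the 4 printed genes at entry, pulled and close-out (horizontal axes). Each thin line is 1 of 22 animals, coloured by set (16 with title numbers up to 98, 6 above 100), and black squares with bars are the mean ± SD over the 22. For ENSBTAG00000011824 the 6 animals start low at entry, and for ENSBTAG00000018398 and ENSBTAG00000020319 the close-out values sit above the entry values in 22 and 20 of 22 animals.

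The contrast that the rule did not use, close-out against entry, asks whether the genes came back to the level they started from. It compares the same libraries that enter both falls, so it is not free of the choice of members. Of the 67, 10 were higher at close-out than at entry in the edgeR quasi-likelihood fit (9.87% of all genes tested) and 0 were lower (10.4%). At an unadjusted p under 0.05, 10 were higher (15.4% of all genes tested) and 3 lower (21.1%). The count of lower members was 0 in limma-voom and 3 in DESeq2, 3 with no replicate block, and 3 without animal 3. In the same order, 1116, 1971, 1413 and 2013 of all genes tested were lower. With all 24 animals the counts were 9 higher and 0 lower, beside 1295 and 1517 of all genes tested. The share of higher members, 10 of 67, is 14.9% beside the 9.87% of all genes.

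The 10 higher members stood above entry at close-out by 0.56 to 1.68 on the log2 scale, with a median of 1.23. Their adjusted p ran from 1.33e-06 to 0.0461 (edgeR quasi-likelihood test). Each was higher at close-out in 16 to 22 of the 22 animals. All 10 lay 1.51 to 3.16 lower at pulled than at close-out by their mean paired differences. Of the 10, 8 were also called higher within the 16 animals (31.2% of all genes tested) and 5 within the 6 (26.6%). The other 57 had close-out minus entry values from -0.87 to 0.37, with a median of -0.17 and standard errors of 0.13 to 0.38. Of these, 45 were below 0, 12 above, and 31 lay within 0.25 of 0. A value that missed the threshold does not show a return to the same level. Within the 16 animals 27 of the 57 were called in either direction, beside 65.5% of all genes tested.

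ENSBTAG00000018398 had the smallest p of the 10, and was also the member nearest to the threshold of the rule. Its lowest, median and highest library stood at 0.65, 2.23 and 3.48 log2 CPM at entry, at -0.46, 1.33 and 3.71 at pulled, and at 2.31, 3.80 and 5.13 at close-out. The stage means were 2.18 ± 0.77, 1.42 ± 1.02 and 3.87 ± 0.76 (SD, n = 22). Close-out was higher than entry in 22 of 22 animals, by 1.68 (SE 0.24; edgeR quasi-likelihood test, adjusted p = 1.33e-06, range over the alternatives 2.69e-11 to 3.28e-06). The pulled ranges overlapped those of both other stages, and the difference from entry was -0.72 (SE 0.24), lower in 16 of 22 animals. All 6 animals with title numbers above 100 were lower at pulled than at entry, by 1.68 ± 0.73 on the log2 scale (SD, n = 6), and 10 of the 16 were. In the edgeR fit the fall from entry was called in the 6 (-1.76, SE 0.44) but not in the 16 (-0.36, SE 0.26). The rule used this contrast, so these calls are a description. The difference between the sets, -1.40 (SE 0.51), had an adjusted p of 0.0135 in the edgeR test, with a range over the alternatives from 0.00356 to 0.169. It was -1.15 and missed the threshold without animal 3.

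ENSBTAG00000020319 followed. Its lowest, median and highest library stood at 2.52, 4.21 and 5.74 log2 CPM at entry, at 0.98, 2.92 and 5.32 at pulled, and at 4.13, 5.35 and 7.75 at close-out. The stage means were 4.19 ± 0.97, 3.01 ± 1.36 and 5.58 ± 1.01 (SD, n = 22). Close-out was higher than entry in 20 of 22 animals, by 1.31 (SE 0.27; edgeR quasi-likelihood test, adjusted p = 0.000419, range over the alternatives 7.63e-06 to 0.00167). The gene was lower at pulled than at entry in 18 of 22 animals and lower than at close-out in 21. Its difference between the sets in pulled minus entry was -1.30 (SE 0.58; edgeR quasi-likelihood test, adjusted p = 0.0438, range over the alternatives 0.0142 to 0.313). Without animal 3 it was -1.24 and no longer past the threshold.

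**Figure D2:**
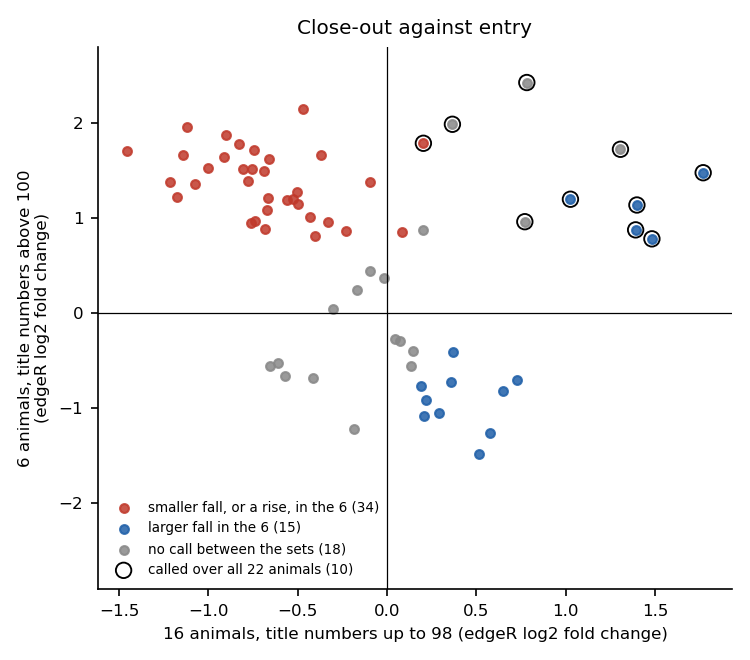
Close-out against entry in each of the 67 genes, as edgeR log2 fold changes, in the 16 animals (horizontal axis) and in the 6 animals (vertical axis), coloured by the difference between the sets in pulled minus entry. Circles mark the 10 genes called higher over all 22 animals, which lie above 0 in both sets, while most of the 34 genes with a smaller fall in the 6 lie left of 0 and above 0.

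The list held genes with different courses in the 2 sets of animals. Between the sets, 49 of the 67 members differed in pulled minus entry (edgeR quasi-likelihood test with an interaction term, adjusted p under 0.05). Over all genes tested the share was 70.5%, so a difference counted in either direction is no property of the list. In 34 members the value was higher in the 6, a smaller fall or a rise (36.8% of all genes), and in 15 it was lower, a larger fall (33.7%). For 18 members no difference was called. The split depends on the scaling: with library totals only, the median difference between the sets over all genes moved from 0.04 to 0.66. The split of members became 40 and 5, and that of all 12655 genes moved from 4661 and 4260 to 6701 and 1817. With RLE scaling the split of members was 33 and 15, beside 4453 and 4560 of all genes.

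The 34 genes with a smaller fall in the 6 were grouped by that difference, between sets noticed in the entry libraries, so how the sets stand at entry and pulled is fixed by the choice and is given as a description. The mean over these genes was 3.19 ± 0.38 log2 CPM at entry, then 1.53 ± 0.36 at pulled and 2.49 ± 0.59 at close-out in the 16 (SD, n = 16). In the 6 it was 1.25 ± 0.42, 1.76 ± 0.36 and 2.61 ± 0.47 (SD, n = 6). Single animals ran from 2.51 to 3.72 at entry in the 16 and from 0.70 to 1.65 in the 6, and the ranges of the sets overlapped at pulled and close-out. The median over genes of the mean paired difference from entry was -1.60 in the 16 and 0.61 in the 6, where 26 of 34 were above 0 and 6 were called higher in the edgeR fit (27.0% of all genes tested). Without animal 3 the median of the 6 was 0.41, 26 of 34 were still above 0, and 0 were called higher (2250 of all genes tested). Averaged over the 6 animals, the mean over these genes was thus lowest at entry, not at pulled. Animal 4 was the exception, at 1.58 at entry and 1.18 at pulled. Against close-out the medians were -0.88 and -0.86. All 34 were called lower against both stages in the 16 (9.87% of all genes tested), and 11 against close-out in the 6 (2.61%).

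The 15 genes with a larger fall in the 6 had the opposite order. Their mean was 4.67 ± 0.60 log2 CPM at entry, then 4.12 ± 0.87 at pulled and 5.36 ± 0.65 at close-out in the 16 (SD, n = 16), and 5.34 ± 0.67, 3.15 ± 0.48 and 5.16 ± 0.41 in the 6 (SD, n = 6). The ranges of the sets overlapped at each stage. The median difference from entry was -0.49 in the 16 and -2.16 in the 6. All 15 were called lower than at entry in the 6 (20.7% of all genes tested) and 6 of 15 in the 16 (37.4%) in the edgeR fit. Against close-out 7 were called in the 6 (2.61%) and 13 in the 16 (14.1%). The rule and the grouping both used these values, so they are a description. This group held 5 of the 10 members that were higher at close-out, with both printed ones among them.

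The 18 genes with no called difference were grouped by that, so close changes from entry in the 2 sets follow from the grouping. Their mean was 4.36 ± 0.36 log2 CPM at entry, then 3.03 ± 0.60 at pulled and 4.43 ± 0.46 at close-out in the 16 (SD, n = 16), and 4.00 ± 0.35, 2.79 ± 0.54 and 4.18 ± 0.52 in the 6 (SD, n = 6). The median differences were -1.14 and -1.07 from entry and -1.23 and -1.23 from close-out. ENSBTAG00000043582 is one of them. All 18 were called lower than both stages in the 16 (9.87% of all genes tested), and in the 6 there were 10 calls against entry (20.7%) and 10 against close-out (2.61%).

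**Figure D3:**
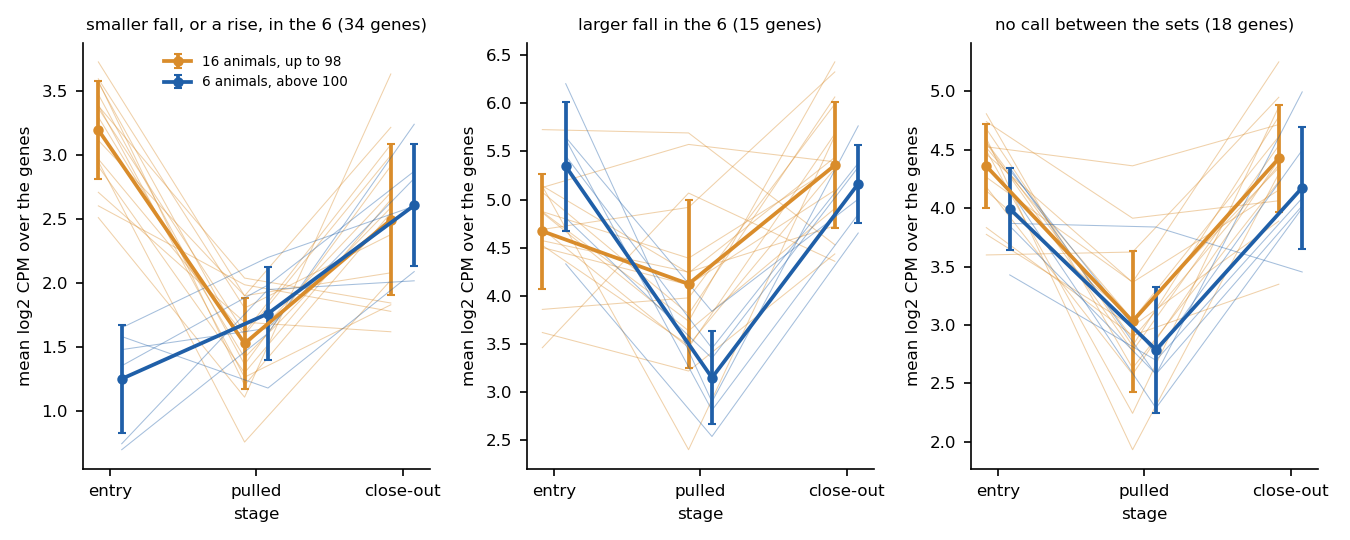
Mean log2 CPM over the 34, 15 and 18 genes (vertical axes) at the 3 stages (horizontal axes). Thin lines are single animals, and circles with bars are the mean ± SD of the 16 animals and of the 6. In the left panel the 6 animals start at 1.25 and the 16 at 3.19, and at close-out the sets are at 2.61 and 2.49.

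Against close-out the sets could not be told apart gene by gene. The difference between the sets in pulled minus close-out passed the threshold in 0 members and in 0% of all genes tested (edgeR quasi-likelihood test). At an unadjusted p under 0.05 there were 3 members, and 3.22% of all genes. limma-voom and DESeq2 also called 0 members, with 5 and 7 at an unadjusted p under 0.05. With 6 animals in 1 set this does not show that the values were equal. All 67 members were below 0 in both sets for this difference.

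Calls within a set rest on 16 and on 6 animals, so their counts cannot be compared between the sets. In the 16 animals 58 members were lower than at entry (37.4% of all genes tested), 65 lower than at close-out (14.1%) and 58 lower than both (9.87%). In the 6 animals 25 were lower than at entry (20.7%) and 6 higher (27.0%), 28 were lower than at close-out (2.61%) and 14 lower than both (0.948%). Without animal 3 the counts in the 6 were 26 lower than at entry, 0 higher and 26 lower than at close-out. Over all genes tested they were 1860, 2250 and 269. The members lower at pulled in all 4 of these comparisons numbered 11 (0.253%), of which 7 came from the 18 genes with no called difference and 4 from the 15. Without animal 3 they numbered 9 (0.221% of all genes tested). The rule used these contrasts, so the counts are a description.

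Counted in either direction, close-out against entry differed between the sets about as often in the list as in all genes tested. By direction the shares were further apart. In the 6 animals 55.2% of members were called higher and 5.97% lower, beside 26.6% and 21.1% of all genes. The rule used entry and close-out libraries and the sets were noticed at entry, so these counts are a description. In the 16 animals 26 members were lower at close-out than at entry (34.2% of all genes tested) and 9 higher (31.2%). In the 6 animals 4 were lower (21.1%) and 37 higher (26.6%). Without animal 3 the counts were 2 and 37, beside 2511 and 3043 of all genes tested. For 25 members both held, lower in the 16 and higher in the 6, each called in its own set (19.4% of all genes tested). The difference between the sets was called in 43 members (66.1% of all genes tested; edgeR quasi-likelihood test), 35 higher in the 6 (35.3%) and 8 lower (30.8%). With library totals only the split was 40 and 2, beside 6870 and 1163 of all 12655 genes tested.

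**Figure D4:**
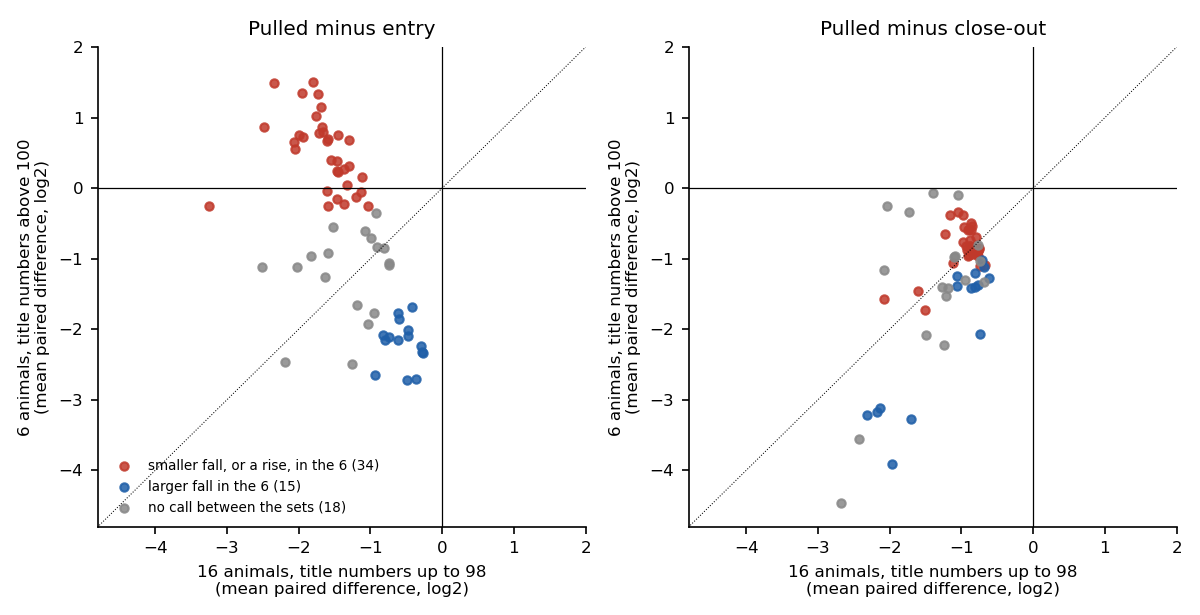
Mean paired difference (log2) of each of the 67 genes in the 16 animals (horizontal axes) and in the 6 animals (vertical axes), for pulled minus entry on the left and pulled minus close-out on the right. The dotted line marks equal values. On the left the genes lie on both sides of it, with 26 above 0 in the 6, and on the right all 67 are below 0 in both sets.

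Levels of the members also varied between animals at 1 stage. The SD over the 16 animals had a median over the 67 genes of 0.57 at entry, then 0.74 at pulled and 0.77 at close-out, against 0.36, 0.41 and 0.43 over all genes tested. The spread was largest at pulled in 25 members, 37.3%, and in 35.6% of all genes. Differences between animals repeated little from entry to close-out. The correlation over the 16 animals had a median of 0.127 over the members (from -0.652 to 0.723) and of 0.310 over all genes tested. The animals share their libraries across genes, so these are descriptions. The members also had a lower median level than all genes tested. Genes of like level were not compared, so neither difference is shown to be a trait of the members.

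The members did not dip as 1 unit. Over the 22 animals, the pulled minus close-out changes of the 2211 pairs of members had a median Pearson r of 0.243, and 27.5% of pairs were at 0.5 or more, against -0.000623 and 16.1% over all pairs of genes tested. All correlations share the 22 pulled and close-out libraries and their scaling. Average-linkage clustering, chosen after the values were seen and cut at a distance of 0.7, gave blocks of 35, 25 and 5 genes and 2 single genes. The median r within blocks was 0.556, 0.573 and 0.867. Over the 875 pairs between the 2 larger blocks it was -0.0352, but single pairs went both ways, from -0.568 to 0.803, with 4.11% at 0.5 or more and 1.14% at -0.5 or less.

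The block of 35 held 33 of the 34 genes with a smaller fall in the 6, and the block of 25 held all 15 with a larger fall and 8 of the 10 that were higher at close-out. The clustering used pulled and close-out libraries, while the division into 34, 15 and 18 used pulled and entry libraries, so both share the pulled ones. The block of 5 consisted of genes with no called difference. Their median difference from close-out was -1.73 in the 16 animals and -0.33 in the 6, and -1.13 in the 6 without animal 3.

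**Figure D5:**
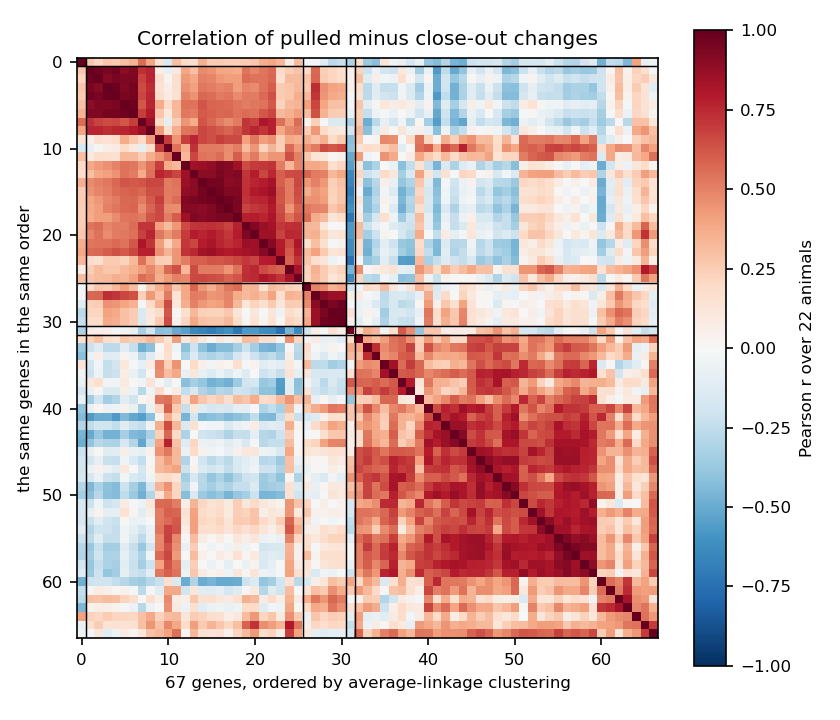
Pearson r over 22 animals between the pulled minus close-out changes of all pairs of the 67 genes, in the order of average-linkage clustering (both axes are genes in that order, and the colour runs from -1 to 1). Black lines divide the blocks of 25, 5 and 35 genes and the 2 single genes, and the field between the blocks of 25 and 35 holds values of both signs, with a median r of -0.0352.

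Inside the blocks, tighter groups of 4 or more genes stood out, and not all are described here. In the block of 35, a group of 7 and a group of 6 genes had mean pulled minus entry differences of 0.67 and 0.69 in the 6 animals, and of -1.77 and -1.55 in the 16. In the block of 25, another group of 6 genes at 4.61 to 11.17 log2 CPM had a lowest pairwise r of 0.898. Its mean was 8.25 ± 0.85 log2 CPM at entry, then 7.52 ± 1.05 at pulled and 8.47 ± 1.12 at close-out in the 16 animals (SD, n = 16), and 8.45 ± 0.35, 6.39 ± 0.53 and 7.70 ± 0.25 in the 6 (SD, n = 6). The ranges of the 22 animals overlapped between stages, from 5.92 to 9.18 at entry and from 5.46 to 9.60 at pulled. The member with the highest level belongs to this group. It stood at 8.78, 11.49 and 12.81 log2 CPM at entry as its lowest, median and highest library, at 8.67, 10.79 and 12.73 at pulled, and at 9.76, 11.21 and 13.0 at close-out. It was lower at pulled than at entry in 15 of 22 animals and than at close-out in 17. Whether genes of this group share reads was not tested, since no sequence was matched to them.

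A group of 4 genes in the block of 25 had deep dips against close-out, with mean paired differences from -3.16 to -2.13. All 4 were higher at close-out than at entry. ENSBTAG00000018398, outside this group, stood at -2.45 against close-out. The mean over the 4 genes of the group was 2.46 ± 1.31 log2 CPM at entry in the 16 animals (SD, n = 16). It was 1.66 ± 1.23 at pulled and 3.78 ± 1.00 at close-out. In the 6 it was 2.86 ± 1.60, 0.47 ± 0.82 and 4.16 ± 1.09 (SD, n = 6). Another 4 genes, in the block of 5, differed in spread: their SD over the 16 animals was 0.53 to 0.75 at entry and 1.18 to 1.62 at pulled. Their mean ran from 6.32 to 8.40 log2 CPM at entry and from 3.27 to 8.95 at pulled, so the animals lay closer together at entry than at pulled, and the highest pulled library was above every entry library.

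The animals that were left out are given here by the labels of their libraries. In animal 9 the mean over the 67 genes was 3.64 log2 CPM at entry, 3.62 in the library labelled pulled and 3.73 at close-out, with 33 of 67 genes lower than at entry and 30 lower than at close-out. The entry library of animal 11, which that library resembles, stood at 3.64. Whether animal 9 dipped at pulled cannot be read from a library so near to one of another animal. In animal 12 the mean over the 67 genes was 3.94, 2.37 and 4.33. Its library labelled pulled had 58 genes lower than at entry and 67 lower than at close-out. That library, too, did not match its label in earlier work on these data. Their values did not enter the means that chose the members, though their libraries entered the filter and scaling, and with 1 library each at pulled, no test was made.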

How the data were processed

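Blood of 24 animals at 3 stages gave 72 libraries. The authors deposited raw read counts per Ensembl gene, with no normalization. TopHat2, HTSeq and the build UMD3.1 were used per the submitters' processing notes. The sources used here do not give versions, annotation release or strand setting. The number of columns matched to no sample was 0, and 4766 genes had no count. Depth ran from 8.24 to 29.1 megareads per library, and low genes are the least precise.

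Genes were filtered by stage and scaled by TMM on all 72 libraries in edgeR 4.0.16 (R 4.3.3), and animals 9 and 12 were then left out. Log2 CPM used a prior count of 2. The quasi-likelihood fit had the animal as a block, which the animal number in the labels gives. Same-animal libraries had a median correlation of deviations of 0.193 (lowest -0.444), and those of different animals -0.00729. A second model added the interaction of stage with the set of animals. All p-values were adjusted by Benjamini-Hochberg over 12655 genes at 0.05. SE is the absolute log2 fold change over the square root of F. The chi-square between libraries was taken over genes whose mean count reached 100 and whose sum in the pair reached 20. Alternatives were limma-voom (limma 3.58.1), DESeq2 1.42.0, RLE scaling, no scaling beyond library totals, other filters and prior counts, no block, all 24 animals and left-out animals. The fits without animal 3, the blocks and the close-out minus entry difference between sets were added after seeing the data. The scripts were tested on simulated data.

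The members and lists were chosen with earlier results of these data known. The 24 gene lists drawn up (12 of cell types, 12 of pathways) were not computed, since 0 identifiers matched a name. The named genes were the members with the largest smaller fall and those with the smallest p at close-out against entry, without the condition that they have a symbol; only 4 are printed. No sequence is shown for the same reason.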

Additional observations from a re-analysis of the deposited data

Results flagged for a closer look

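Animals with high library title numbers (above 100, n = 6) and with low ones (up to 98, n = 16) differed in the following changes, by an interaction term in the edgeR quasi-likelihood fit with Benjamini-Hochberg adjustment. In pulled minus entry, 49 of the 67 members differed, beside 70.5% of all genes tested, and in close-out minus entry 43 did, beside 66.1%. ENSBTAG00000011824 differed by 3.33 in pulled minus entry and by 2.43 in close-out minus entry, both as the 6 minus the 16 on the log2 scale. ENSBTAG00000018398 differed by -1.40 and ENSBTAG00000020319 by -1.30 in pulled minus entry. The TMM factor at entry also differed between the sets, 0.806 ± 0.0966 in the 6 and 1.13 ± 0.0856 in the 16 (SD). With library totals only the counts were 45 and 42 members, beside 8518 and 8033 of all genes tested. The labels do not say what the title numbers stand for.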

How the results depend on the processing

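The rule took 67 genes. It took 158 with library totals only, 140 with the median of paired differences, 121 in the 16 animals alone and 130 in the 6 alone, of which 67, 58, 49 and 26 were among the 67. With 1 animal left out in turn it took 59 to 89, with the highest counts without animal 13 (89) and animal 3 (88). Other settings gave 63 to 74. Of the 67, 42 were called lower than both stages at an adjusted p of 0.01 (59 to 66 elsewhere, 59 with no replicate block). At close-out, 6 were higher than at entry at an adjusted p of 0.01 (8 to 10 elsewhere, 8 with no replicate block), and 3 were lower in DESeq2, 3 with no replicate block and 3 without animal 3 (0 elsewhere). Over all genes tested, 691 were higher at an adjusted p of 0.01. The lower ones numbered 1971 in DESeq2, 1413 with no replicate block and 2013 without animal 3. Without animal 3, 9 members were higher at close-out, 45 and 42 differed between the sets in pulled minus entry and close-out minus entry, 0 in pulled minus close-out, and 64 were lower than both stages. Over all genes tested, 1594 were then higher at close-out, and 8151, 8142 and 0 differed between the sets in those 3 changes. Of the values of the 4 printed genes under the alternatives, 171 kept direction and side of the threshold, 8 lost the call and 5 changed sign without a call on either side. The changes of sign were all in differences between the sets. With library totals only they were in ENSBTAG00000043582 for pulled minus entry (0.37) and in ENSBTAG00000018398 and ENSBTAG00000020319 for close-out minus entry (0.36 and 0.40). Without animal 3 they were in ENSBTAG00000011824 and ENSBTAG00000043582 for pulled minus close-out (-0.0963 and -0.0199). The lost calls were ENSBTAG00000018398 against entry with no replicate block (-0.61, adjusted p = 0.0610 in edgeR) and the differences between the sets of ENSBTAG00000018398 and ENSBTAG00000020319 with library totals only (-0.77 and -0.65), in limma-voom (-1.23 and -1.08) and without animal 3 (-1.15 and -1.24), and for the latter with at least 1 CPM in 24 libraries (-1.24). The cause of these changes was not tested. Apart from these, the fit with no block changed no call of the printed genes. Low counts limit 11 members whose lowest pulled count was under 5.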
